A study of Mus musculus with 6 samples.

Results

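The expression of 10 genes of the Merkel cell lineage was followed across 6 arrays of mouse skin epithelium, labelled as knockout or wild type for Ezh1 and Ezh2, the methyltransferases of Polycomb repressive complex 2 (PRC2). They are Isl1, Sox2, Atoh1, Krt20, Cck, Ncam1, Piezo2, Chga, Syp and Rab3c. The genes were taken by name, and every probe set whose annotation names that gene alone was included, which gave 23 probe sets for the 10 genes, of 18193 genes named on the array. RNA came from 3 FACS-sorted populations of 14-day-old mice on a mixed C57B6 and CD1 background, labelled Ezh1/2 2KO (2KO) or Ezh1/2 WT (WT). The populations were basal epidermal cells, matrix cells of the hair bulb and outer root sheath (ORS) cells. Each of the 6 groups was measured on 1 array, so that no difference has a replicate check and no value an error. RNA of the 2KO basal epidermis came from females and that of the other 5 samples from both sexes. The Cre, the cells it acted in and the number of mice per sample are not given in the labels.

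Merkel cells are touch receptors of the basal epidermis and the outer root sheath of whiskers, and they arise from epidermal progenitors. The transcription factor Atoh1 is required for their formation in the mouse, and Sox2 and Isl1 act with it in the lineage. Mature Merkel cells make the simple keratin Krt20, hold dense-core granules with peptides such as cholecystokinin, and open the channel Piezo2 on touch. PRC2 methylates lysine 27 of histone H3 and keeps developmental regulators silent in cells of other lineages, often at promoters rich in CG dinucleotides.

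The promoter windows of Isl1, Sox2 and Cck, which were higher in 2KO cells, are shown with that of Atoh1, which founds the lineage and was not read on any array. Each is the 250 bases before the RefSeq start in the GRCm38.p6 assembly, written from 5′ to 3′ on the strand of the gene, with CG dinucleotides in capitals. The Isl1 window lies at chr13:116309689-116309938, minus strand, the Sox2 window at chr3:34649745-34649994, plus strand, the Cck window at chr9:121495695-121495944, minus strand, and the Atoh1 window at chr6:64728875-64729124, plus strand.
Isl1: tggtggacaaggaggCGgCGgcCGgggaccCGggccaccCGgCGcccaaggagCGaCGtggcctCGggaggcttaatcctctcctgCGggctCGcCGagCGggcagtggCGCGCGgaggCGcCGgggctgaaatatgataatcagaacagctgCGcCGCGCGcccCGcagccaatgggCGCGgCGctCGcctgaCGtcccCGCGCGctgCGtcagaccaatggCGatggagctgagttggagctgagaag
Sox2: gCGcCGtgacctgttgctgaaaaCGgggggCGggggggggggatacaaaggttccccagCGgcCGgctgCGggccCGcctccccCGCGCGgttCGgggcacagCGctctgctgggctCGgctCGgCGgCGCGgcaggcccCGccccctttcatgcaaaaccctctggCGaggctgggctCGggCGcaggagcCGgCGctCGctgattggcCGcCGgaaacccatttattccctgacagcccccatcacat
Cck: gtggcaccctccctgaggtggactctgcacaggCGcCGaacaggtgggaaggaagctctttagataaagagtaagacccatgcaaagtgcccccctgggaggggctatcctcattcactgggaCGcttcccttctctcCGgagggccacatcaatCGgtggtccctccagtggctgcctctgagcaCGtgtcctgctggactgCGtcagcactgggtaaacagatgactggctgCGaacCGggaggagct
Atoh1: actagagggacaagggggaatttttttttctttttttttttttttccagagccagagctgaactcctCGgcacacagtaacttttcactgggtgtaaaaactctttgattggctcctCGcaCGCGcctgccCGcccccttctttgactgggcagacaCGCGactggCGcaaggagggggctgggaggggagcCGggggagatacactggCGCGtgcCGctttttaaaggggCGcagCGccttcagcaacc
Isl1 held 33 CG dinucleotides and Sox2 held 27, as many as or more than which were found in 4.03% and 8.56% of the 32851 windows of the same length. Atoh1 held 14 (29.4% of windows hold as many or more) and Cck held 9 (40.3%), against a median of 6 over all windows. The motif is CG, which reads the same on both strands. Of the other members, Chga held 16, Syp 11, Rab3c 7 and Krt20 5 (25.4%, 35.6%, 46.3% and 55.6% of windows hold as many or more). Windows were matched for 8 of the 10 members, all but Ncam1 and Piezo2.

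Values are MAS5 signals on a linear scale, and the floor of 83.2 signal units, the median over all probe sets and arrays, stands for the level below which a signal was not read. On each array 47.8% to 53.1% of probe sets exceeded it. A gene was called higher or lower at a 2-fold difference after signals below the floor were raised to it, and where 1 signal of a pair was below the floor the fold is given as "at least". The targeted genes were lower on each 2KO array. Ezh2 read 432, 1725 and 378 in 2KO basal epidermis, matrix and ORS, against 2563, 3578 and 2151 in WT, so that it was 5.93-fold, 2.07-fold and 5.69-fold lower. Ezh1 read 57.4, 89.4 and 51.6 in 2KO against 401, 317 and 380 in WT, 3.54-fold lower in matrix, with bounds of 4.82-fold (basal epidermis) and 4.57-fold (ORS). The deleted exons are not named in the labels, so whether these probes lie in them is not known. The summed basal layer list read 116125 and 107945 in 2KO basal epidermis and ORS, against 134166 and 107510 in WT. In matrix that sum was 49967 in 2KO and 28676 in WT. The summed matrix list read 46547 in 2KO and 62770 in WT matrix against 1393 to 3708 elsewhere. The summed signal of the ORS list did not set 2KO ORS apart from 2KO matrix, though most of its genes were brighter in 2KO ORS. The sum was 29261, 53736 and 49877 in 2KO basal epidermis, matrix and ORS, against 33538, 12996 and 55848 in WT. Krt79 read 19517 in 2KO matrix and 5691 in 2KO ORS, Krt17 18891 and 18221, and Lhx2 5112 and 5050. The rest were brighter in 2KO ORS. Lgr5, a follicle stem cell receptor, read 923 in 2KO matrix and 2683 in 2KO ORS. Cd34 read 128 and 737, Nfatc1 999 and 3145, and Tcf7l2 1216 and 2633. Tcf7l1 read 1118 and 2280, Sox9 2345 and 4650, and Wif1 3486 and 4785. In 2KO matrix, 6 of 10 ORS markers were at least 2-fold higher than in WT matrix, 7 of 11 skeletal muscle markers were, and 8 of 10 fibroblast markers. Immune markers were higher in 6 of 11 cases and basal layer markers in 3 of 8. Beside these counts, 5.79% of all genes named and 9.03% of genes measured were higher in 2KO matrix. Higher calls made up 61.7% (basal epidermis), 84.8% (matrix) and 63.2% (ORS) of all calls. This share depended on scaling, at 52.2%, 55.4% and 39.0% with arrays set to 1 shared median, and at 55.9%, 14.4% and 44.5% with arrays set to their hybridisation controls.

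Isl1, a LIM homeobox factor of motor neurons, sensory neurons and endocrine cells, was read in 2KO cells of all 3 populations and in none of WT. Its brighter probe set read 750, 253 and 562 in 2KO basal epidermis, matrix and ORS, against 15, 5.01 and 4.0 in WT. All 3 of the 2KO arrays were above the floor and all 3 of the WT arrays below it. The bounds were 9.02-fold, 3.04-fold and 6.76-fold higher in 2KO. The other Isl1 probe set read 182, 73.5 and 211 in 2KO against 4.26, 15.9 and 3.78 in WT. Its bounds were 2.19-fold (basal epidermis) and 2.53-fold (ORS), and both matrix arrays were below the floor.

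Sox2, a factor that keeps progenitors of many epithelia and neural tissue and is made by Merkel cells and by some dermal papilla cells, has 1 probe set. It read 509, 324 and 507 in 2KO basal epidermis, matrix and ORS, against 15.5, 12.3 and 17.4 in WT. Again the 2KO arrays all lay above the floor and the WT arrays below it. In 2KO, Sox2 was at least 6.12-fold (basal epidermis), 3.89-fold (matrix) and 6.10-fold (ORS) higher. In contrast to Isl1, its signal on the 3 arrays of 2KO cells stayed within 1.57-fold.

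Atoh1, the founding bHLH factor of the lineage, was below the floor on all 6 arrays. It read 26.2, 31.5 and 60.4 in 2KO basal epidermis, matrix and ORS, against 47.2, 7.10 and 30.3 in WT. No level of Atoh1 can be given at this sensitivity, which does not show that the gene was silent. The factors Gfi1 and Pou4f3, which stand downstream of Atoh1 in hair cells of the mouse inner ear, were also below the floor on all 6 arrays, at most 53.4 and 51.3. A wider list of 17 other factors of Merkel, neuroendocrine and hair cells on the array had 1 gene higher in 2KO basal epidermis, 2 in matrix and 2 in ORS, and 0, 1 and 0 lower. Ebf3 was called in basal epidermis (177 against 38.6, at least 2.12-fold higher) and ORS (198 against 45.7, at least 2.38-fold higher). Insm1, a zinc finger factor of neuroendocrine cells, was at least 3.38-fold higher in matrix, at 282 against 18.7. It read 105 and 165 in 2KO basal epidermis and ORS, against 30.6 and 22.0 in WT, which did not reach 2-fold after the floor. Lmo1 was 6.02-fold higher in matrix (623 against 104), Lhx3 at least 2.36-fold higher in ORS (196 against 33.8), and Hes6 2.03-fold lower in matrix (574 against 1164). The medians of the measured genes of this list were 0.22, 0.63 and 0.76 on the log2 scale.

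**Figure D1:**
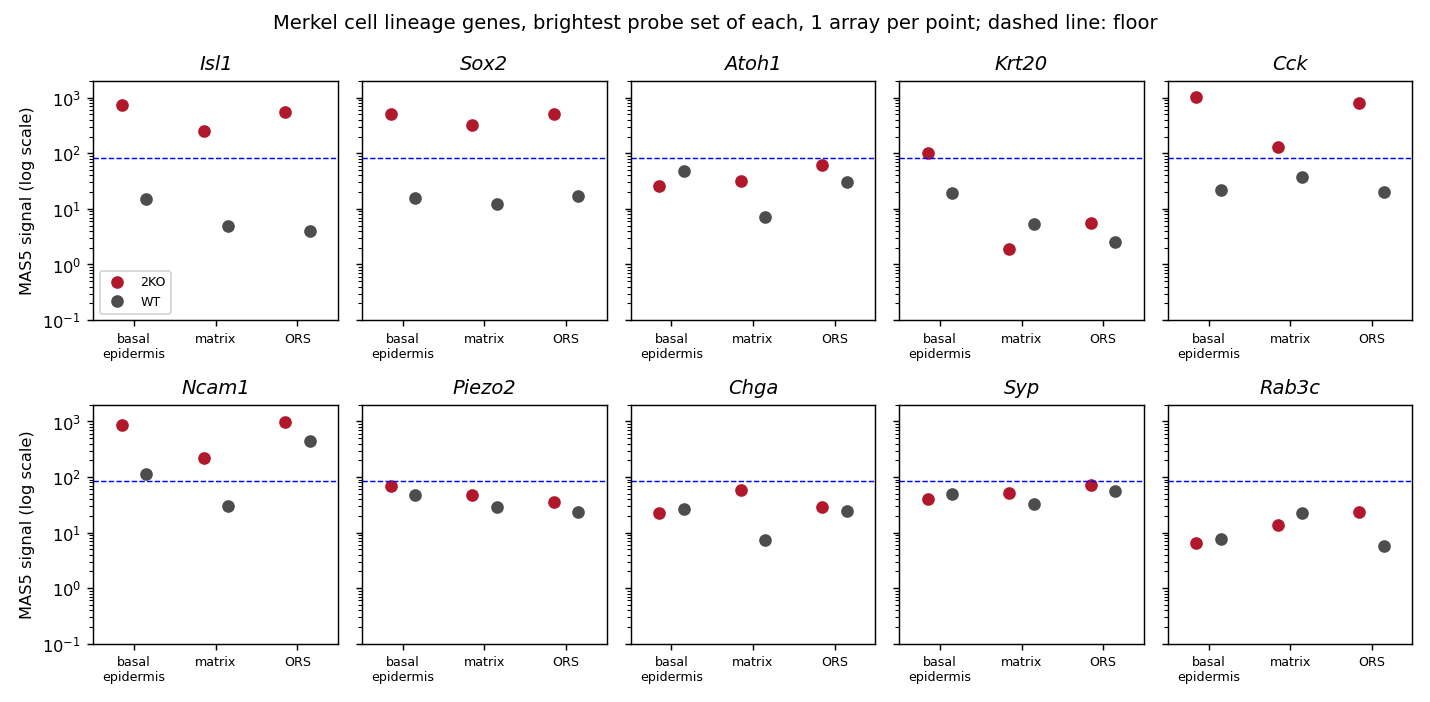
MAS5 signal (log scale) of the brightest probe set of each of the 10 genes in basal epidermis, matrix and ORS, with 1 array per point, 2KO left of WT, and the floor of 83.2 as a dashed line. Isl1, Sox2 and Cck lie above the floor on the 3 arrays of 2KO cells and below it on the 3 arrays of WT cells, and Atoh1, Piezo2, Chga, Syp and Rab3c lie below it on all 6.

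Cck encodes cholecystokinin, a peptide of gut endocrine cells, neurons and Merkel cells. It read 1018, 130 and 819 in 2KO basal epidermis, matrix and ORS, against 21.6, 38.0 and 20.4 in WT. In 2KO it was higher by at least 12.2-fold (basal epidermis) and at least 9.85-fold (ORS). In matrix its 2KO signal was above the floor by a small margin, and the bound was at least 1.56-fold, short of 2-fold. Of 13 other peptides, neurotrophins and amine enzymes on the array, 4, 5 and 3 were higher in 2KO basal epidermis, matrix and ORS and 0 lower. Calcb, a calcitonin gene-related peptide, read 1588, 1797 and 3087 in 2KO against 164, 219 and 147 in WT, and Tac1, the substance P precursor, read 1690, 671 and 1995 against 99.1, 27.6 and 262. The bounds for Npy were 4.45-fold, 3.19-fold and 2.93-fold higher, Penk 4.19-fold higher in matrix, and Bdnf 2.28-fold higher in basal epidermis. Vip, which Merkel cells of some mammals hold, was below the floor on all 6 arrays.

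Ncam1, a cell adhesion molecule of neurons, muscle and Merkel cells, was the 1 member with a signal above the floor in WT cells. Its brightest probe set read 868, 218 and 968 in 2KO basal epidermis, matrix and ORS, against 115, 29.6 and 442 in WT. The 2KO signal was higher by 7.57-fold (basal epidermis), at least 2.63-fold (matrix) and 2.19-fold (ORS). The ORS difference fell to 0.88 and 0.93 on the log2 scale, just under 2-fold, with arrays set to 1 shared median or to their hybridisation controls. Of its 7 probe sets 3 were above the floor on at least 1 array. The next brightest read 487, 69.1 and 451 in 2KO against 30.1, 11.1 and 162 in WT, higher by at least 5.85-fold (basal epidermis) and 2.79-fold (ORS), with matrix below the floor. The third read 134 in 2KO ORS and 76.9 in WT ORS, at least 1.61-fold higher, and was below the floor elsewhere. The 4 others were below it on all arrays, so that the probe sets did not differ in direction where they could be read.

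**Figure D2:**
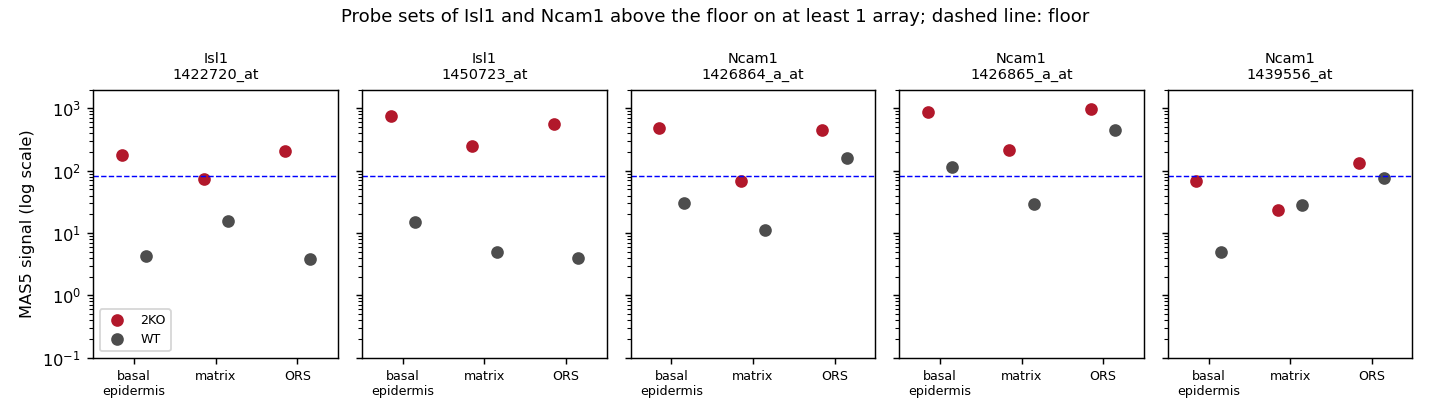
MAS5 signal (log scale) of the 2 probe sets of Isl1 and of the 3 of 7 probe sets of Ncam1 that reached the floor (dashed line, 83.2) on at least 1 array, by population, with 1 array per point and 2KO left of WT. Each pair with a signal above the floor reads higher in 2KO than in WT, and only the brightest of each gene reaches the floor in matrix.

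Krt20, the keratin by which Merkel cells are usually stained, was above the floor on 1 array. It read 100, 1.93 and 5.48 in 2KO basal epidermis, matrix and ORS, against 19.3, 5.45 and 2.5 in WT. The bound in basal epidermis was at least 1.21-fold, which is not a call, and a lower floor, the 25th percentile of signals (21.2), gave a call at 2.25 on the log2 scale. The simple keratins with which Krt20 is paired in Merkel cells were clearly read. Krt18 read 1533, 710 and 1810 in 2KO basal epidermis, matrix and ORS, against 219, 188 and 320 in WT, and was 7.01-fold, 3.78-fold and 5.66-fold higher. Krt8, its partner, was at least 4.56-fold, at least 5.11-fold and 3.23-fold higher. Krt7, a keratin of ducts and glands, was 19.6-fold higher, with bounds of 2.84-fold and 6.55-fold in matrix and ORS, and Krt19 did not reach 2-fold in any population, at 65.7, 127 and 86.5 in 2KO against 15.3, 85.1 and 68.0 in WT. These 3 keratins are made by many simple epithelia and do not mark Merkel cells by themselves.

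The genes of secretion and touch were below the floor on each of the 6 arrays. Chga, the granule protein chromogranin A, read 22.8, 57.5 and 28.7 in 2KO basal epidermis, matrix and ORS, against 27.1, 7.45 and 24.1 in WT. Syp, the vesicle protein synaptophysin, read 39.5, 51.3 and 72.4 in 2KO by its brighter probe set, against 49.0, 32.6 and 56.8 in WT. Piezo2 read 68.9, 47.4 and 35.2 in 2KO by the brighter of 2 probe sets, against 48.0, 29.4 and 23.3 in WT, and Rab3c, a small GTPase of vesicles, was at most 34.1 on any array by any of its 5 probe sets. With Atoh1, these 5 genes account for 11 of the 23 probe sets, and their highest signal on any array was 72.4. Their 2KO and WT signals have no order below the floor.

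Genes of the same machinery were measured in part. Over the whole array, 11527, 11661 and 11994 of 18193 genes were measured in basal epidermis, matrix and ORS. Of 15 dense-core granule genes on the array, 4 were measured in basal epidermis and in matrix and 6 in ORS, and 1, 1 and 4 were higher in 2KO. Cpe, the carboxypeptidase that trims peptides, read 11826, 6768 and 17460 in 2KO basal epidermis, matrix and ORS, against 7525, 862 and 8031 in WT, and was called in matrix (7.85-fold) and ORS (2.17-fold). Ptprn2, a granule membrane phosphatase, was higher by at least 3.85-fold (basal epidermis) and at least 5.94-fold (ORS), and Syt7, a calcium sensor, at least 11.4-fold higher in ORS. Vgf, a granule peptide precursor, was at least 2.15-fold higher in ORS. Chgb, Scg2, Scg3, Scg5 and Pcsk1, granule cargo and processing genes, were below the floor on all 6 arrays. Of 23 synaptic vesicle genes 11, 10 and 13 were measured, of which 1, 1 and 0 were higher and 1, 0 and 1 lower, with Rab3d, a Rab3 of exocrine cells, lower by 4.07-fold (basal epidermis) and 3.30-fold (ORS). In basal epidermis Rims1 was higher by at least 2.12-fold, and in matrix Stx1a by 2.03-fold. Rab3a, Vamp2, Stx1a, Cplx1, Cplx2 and Syngr1 were above the floor on all 6 arrays, and Snap25, Syn1 and Syt1 were below it on all 6. The medians over measured genes were 0.35, 0.093 and 0.47 on the log2 scale for vesicle genes and 0.73, 0.22 and 1.11 for granule genes.

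Among 15 ion channel and touch genes, 3, 4 and 3 were higher in 2KO basal epidermis, matrix and ORS, and 1, 0 and 0 lower. Piezo1, the paralog of Piezo2 that many non-neuronal cells use, read 2325, 1772 and 2915 in 2KO against 851, 701 and 1357 in WT, and was 2.73-fold, 2.53-fold and 2.15-fold higher. The bounds for Trpc1 were 7.69-fold, 3.95-fold and 8.41-fold higher, and Atp1b1 was 3.16-fold, 2.83-fold and 3.30-fold. Kcnk2, a stretch-gated potassium channel, was 5.46-fold lower in basal epidermis and at least 3.76-fold higher in matrix. Neuronal cytoskeleton and adhesion genes were higher in 1, 5 and 3 of 18 cases and lower in 0, led by Ina (at least 4.67-fold in matrix, at least 2.73-fold in ORS) and Tubb3 (at least 3.41-fold in basal epidermis). Of 10 genes of Shh, Eda and Fgf signalling, which act on Merkel cell formation in developing mouse skin, 0, 2 and 4 were higher and 1, 0 and 1 lower. Gli1, a target of Shh signalling, was 6.17-fold higher in 2KO ORS, at 1102 against 179, and read 131 and 1151 in 2KO basal epidermis and matrix against 102 and 656 in WT. Shh was 2.86-fold higher in matrix and Fgfr2 2.82-fold lower in basal epidermis.

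**Figure D3:**
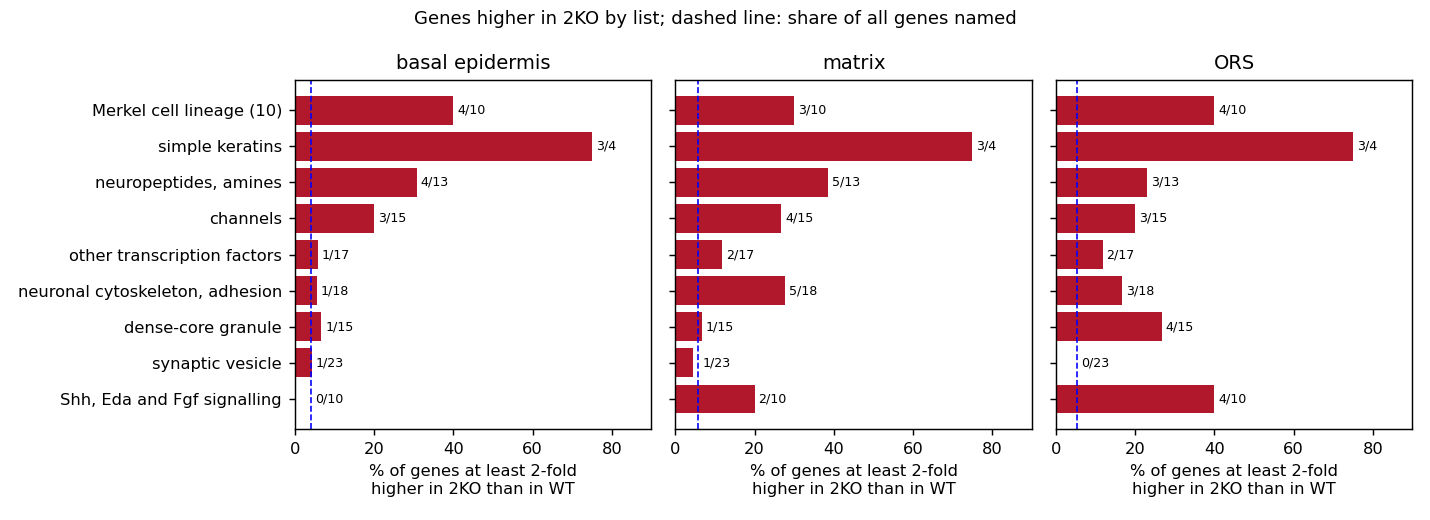
Percent of the genes of each list on the array that were at least 2-fold higher in 2KO than in WT, by population, with counts beside the bars; the dashed line is the share among all 18193 genes (4.18%, 5.79% and 5.38%). The lineage genes, simple keratins, peptides and channels lie to the right of the line in each population. So do other factors, neuronal genes and the Shh, Eda and Fgf genes in matrix and ORS, and granule genes in ORS. With 1 gene each, other factors (5.88%), granule genes (6.67%) and neuronal genes (5.56%) in basal epidermis lie near the line. Granule genes in matrix (6.67%, 1 gene) do too, and the synaptic vesicle genes lie at 4.35%, 4.35% and 0.

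Of the 10 genes, 4 were at least 2-fold higher in 2KO basal epidermis, 3 in matrix and 4 in ORS, where 4.18%, 5.79% and 5.38% of all genes named, or 6.59%, 9.03% and 8.16% of genes measured, were higher. No member was lower in any population, where 2.59%, 1.04% and 3.13% of all genes named were lower. Only Ncam1 in ORS (442 in WT) had a WT signal at least 2-fold above the floor. A lower call was not possible for any other member or population, so its absence there is not a result. Isl1, Sox2 and Ncam1 were higher in all 3 populations, as were 1.17% of all genes. With the matrix pair left out, which was decided after the data were seen, Cck joined them as higher in basal epidermis and ORS, as did 2.09% of all genes. Of the 10, 5, 4 and 4 could be measured in basal epidermis, matrix and ORS. Apart from Ncam1 in basal epidermis and ORS, each of these had a WT signal below the floor, so that it could be read only through a higher 2KO signal. The medians of 2.92, 1.5 and 2.68 on the log2 scale over the measured members are therefore given as a description, beside medians of 0.04, 0.03 and 0.01 over all measured genes. In bulk RNA, more cells of a type and more RNA per cell cannot be told apart.

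**Figure D4:**
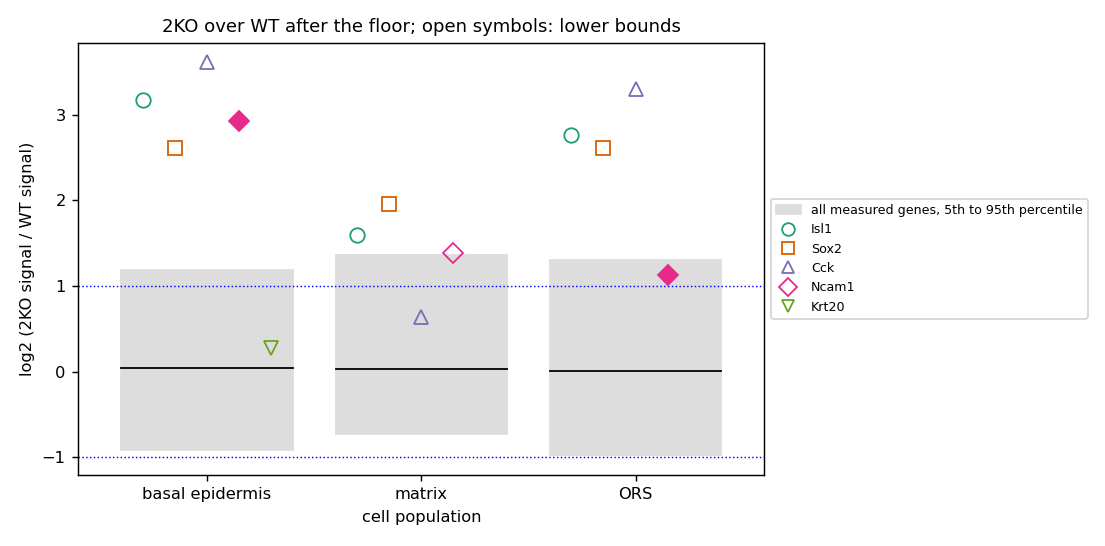
Log2 ratio of 2KO over WT after the floor for the 5 members measured in at least 1 population, with open symbols for lower bounds, grey boxes for the 5th to 95th percentile of all measured genes, black lines for their median and dotted lines at 2-fold. Isl1 and Sox2 lie above the box in all 3 populations, Cck in basal epidermis and ORS, and Ncam1 in basal epidermis and, narrowly, in matrix. The plotted matrix values of the 4 called members are the lowest of the 3 populations, apart from Ncam1 in ORS (1.13, against 1.39 in matrix). All matrix values are lower bounds, so they do not order the ratios themselves.

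In 2KO cells Isl1, Sox2, Cck and Ncam1 were all lowest in matrix. By the brightest probe sets, Isl1, Sox2 and Cck read highest in basal epidermis and Ncam1 in ORS. The next brightest probe sets went the other way, for Isl1 at 182 in basal epidermis and 211 in ORS. For Ncam1 they read 487 and 451. Between 2KO basal epidermis and 2KO ORS each of the 4 genes lay within 1.33-fold (2.84% of all genes were at least 2-fold higher and 4.42% lower in basal epidermis), and with 1 array per group such neighbours are not ordered. In 2KO matrix against 2KO ORS, Cck was 6.33-fold, Ncam1 4.43-fold and Isl1 2.22-fold lower, and Sox2 1.57-fold lower. That is 3 members at least 2-fold lower, as were 5.73% of all genes named. In 2KO basal epidermis against 2KO matrix, Cck was 7.86-fold, Ncam1 3.97-fold and Isl1 2.97-fold higher, as were 4.78% of all genes at 2-fold. These pairs share arrays with the comparisons of 2KO and WT. Ezh2 itself was highest in 2KO matrix, at 1725 against 432 in 2KO basal epidermis and 378 in 2KO ORS. Its part in the lower 2KO matrix levels of the members was not tested. In WT cells only Ncam1 could be placed. It was at least 5.31-fold lower in WT matrix than in WT ORS and 3.85-fold lower in WT basal epidermis than in WT ORS, where 8.76% and 3.66% of all genes named were lower.

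The pattern of each of the 4 called members over the 6 arrays was compared with that of 12646 eligible genes, those above the floor on at least 1 array, by the mean absolute difference of log2 signals after the floor, each centred on its own mean. The closest to Isl1 were Igf2bp1 (0.10), an RNA-binding protein of embryonic tissue, the hindlimb homeobox gene Pitx1 (0.14) and Hoxd9 (0.15). The closest to Sox2 were Hoxd9 (0.051), the bHLH gene Tcfl5 (0.061) and Mgarp (0.088). Among members, Isl1 and Sox2 differed by 0.20, Isl1 and Cck by 0.33, and Ncam1 from each of these by 0.65 to 0.70. The closest to Cck were the Polycomb family gene Sfmbt2 (0.27), Sh2d5 (0.32) and the urea transporter gene Slc14a1 (0.34). The closest to Ncam1 were Capn6 (0.25), the proprotein convertase gene Pcsk5 (0.30) and the phosphatase gene Dusp4 (0.30), which like Ncam1 were read in WT ORS, at 392, 490 and 1458. Hoxd9 read 537, 291 and 531 in 2KO basal epidermis, matrix and ORS, against 44.6, 37.3 and 33.0 in WT. Its WT signals, like those of Sox2, were below the floor and were raised to it, so that likeness between them rests on the 2KO arrays.

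**Figure D5:**
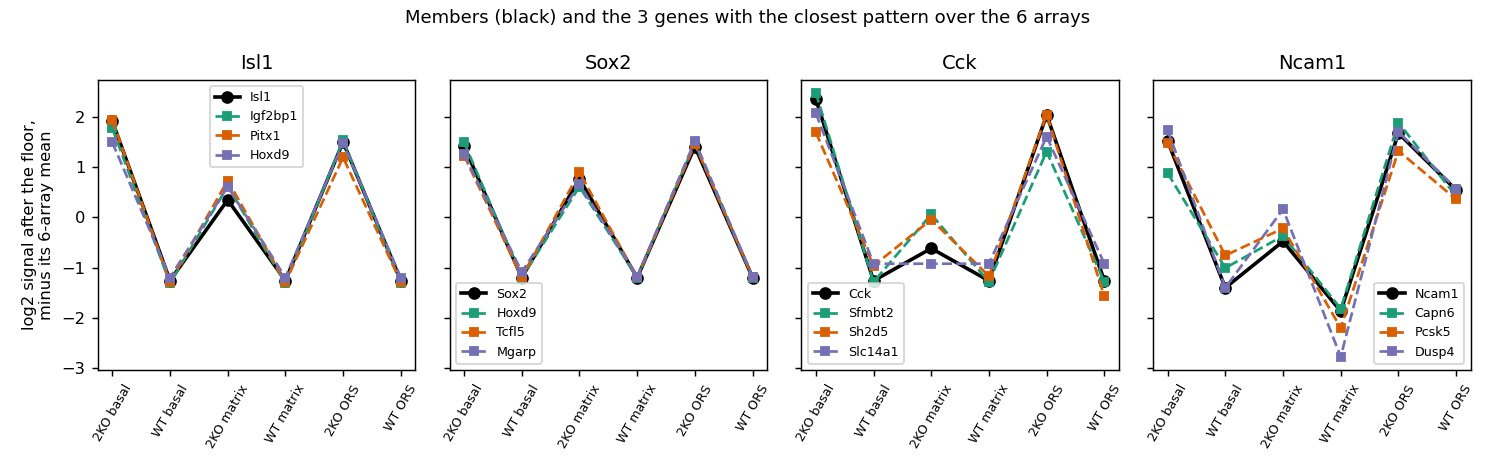
Log2 signal after the floor, minus its mean over the 6 arrays, for Isl1, Sox2, Cck and Ncam1 (black) and the 3 genes closest to each (dashed, coloured). The genes closest to Isl1 and Sox2 lie at the floor in WT, apart from Mgarp in WT basal epidermis (88.6), while those closest to Ncam1 rise again in WT ORS.

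Markers of other cells in which some of the members are active were read beside them. Of all genes named, 4.18%, 5.79% and 5.38% were at least 2-fold higher in 2KO basal epidermis, matrix and ORS, and 2.59%, 1.04% and 3.13% lower. Of 9 dermal papilla genes on the array, 2, 2 and 3 were higher in 2KO basal epidermis, matrix and ORS, and their summed signals were 1374, 4795 and 5876 in 2KO against 376, 1637 and 558.2 in WT. The higher genes were Wif1, which is also an ORS gene, Prom1, and in ORS Hhip. Corin (129) and Rspo3 (128) were above the floor only in 2KO matrix. Fgf7 was above it only in 2KO matrix (137) and 2KO ORS (145), and Alx4, Sox18 and Fgf10 on no array. Of 8 Schwann cell genes 0, 2 and 0 were higher and 0, 1 and 0 lower. In matrix Pmp22 was 3.08-fold and Mbp at least 2.47-fold higher, and Egfl8 was 2.07-fold lower. The Schwann cell sums were 8402, 5911 and 5330 in 2KO against 9362, 3471 and 5631 in WT, and most of each sum was Erbb3, which keratinocytes also make. Sox10 was below the floor in 2KO basal epidermis (58.2), at 113 in 2KO matrix and 119 in 2KO ORS, against 68.5, 51.2 and 180 in WT. Of 9 sensory neuron genes 2, 1 and 1 were higher, with sums of 1908, 740.5 and 1227 in 2KO against 788.1, 433.9 and 377 in WT, and Prph, P2rx3, Trpv1 and Scn10a were below the floor on all 6 arrays. The higher genes were Ntrk2, at 1302 in 2KO and 577 in WT basal epidermis and at 641 in 2KO and 150 in WT ORS, and Tubb3 in basal epidermis and matrix. Ntrk3, Avil and Pou4f1 passed the floor on 2KO arrays alone. Melanocyte genes were higher in 0 of 9 cases in each population and lower in 1, which was Mitf in basal epidermis, Dct in matrix and Tyrp1 in ORS. The melanocyte sums were 1066, 2760 and 1668 in 2KO against 1636, 3872 and 1728 in WT. Genes of skeletal muscle, a tissue whose satellite cells make Ncam1, summed to 600.7, 3998 and 713.6 in 2KO against 492.2, 633.7 and 556.3 in WT. Immune genes summed to 7743, 6280 and 7146 in 2KO against 10066, 1612 and 5275 in WT, and fibroblast genes to 21907, 38979 and 38455 against 39365, 20731 and 28587. The part of these cells in the values of the members was not tested.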

How the data were processed

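The deposited values are intensities, 1 MAS5 signal per probe set and array on a linear scale, for 45101 probe sets. MAS5 is named in the submitters' processing notes, without version or detection calls, and the series text states that images were background-subtracted. The 2% trimmed mean of each array was 500, so the deposited signals had been scaled to a common trimmed mean. Labelling was by in vitro transcription with biotin, per the labels' protocols. Array medians lay between 72.6 and 99.0, and the number of arrays limits the precision.

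Genes were named from the platform annotation. Control probe sets (64) and those naming several genes (932) were left out, and each gene was read from the probe set whose mean log2 signal was highest. Of the annotated probe sets naming 1 gene, 99.4% had an identifier in the RefSeq table. Signals were raised to the floor of 83.2, log2 ratios taken and called at 2-fold; a pair with both signals below the floor was not measured. With 1 array per group there was no test and no p-value. The calling was tested on simulated data, with known changes placed only in genes well above the floor in WT. That test does not bear on members whose WT signal was below the floor. The genes named were the 10 members, Ezh1 and Ezh2, up to 4 genes per list and population with the largest differences of at least 2-fold, and the 3 genes of closest pattern per called member. List genes named without a 2-fold difference, and population markers, were picked once their values were known. The members and lists were chosen with earlier results of these data known. The alternatives were 4 scalings, 3 treatments of low signals and 2 choices of probe sets. Work was done in Python 3.11.15 with numpy 2.4.6 and pandas 2.3.3, and limma 3.58.1 (R 4.3.3) for loess.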

Additional observations from a re-analysis of the deposited data

Results flagged for a closer look

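Kcnk2, the stretch-gated potassium channel of the touch list, moved in opposite directions in 2 populations. Its log2 ratio of 2KO over WT was -2.45 in basal epidermis, from signals of 124 in 2KO and 678 in WT, and 1.91 in matrix, a lower bound from signals of 313 in 2KO and 71.2 in WT. In ORS it read 604 in 2KO and 947 in WT. With 1 array per group the difference between populations was not tested.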

How the results depend on the processing

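Over 9 alternatives, the 11 called ratios of members (Isl1, Sox2 and Ncam1 in 3 populations, Cck in basal epidermis and ORS) gave 93 values. No value was obtained for Isl1, Sox2 and Ncam1 in matrix with the floor at the 75th percentile, or for Ncam1 with the mean of all probe sets. All values were above 0. Apart from Ncam1 in basal epidermis and ORS, the WT signals were below the main floor. With a floor above the WT signal a ratio cannot be negative, so its sign is no check. Of the 93 values, 84 were at least 2-fold, but part of these could not have come out otherwise. Leaving out x_at and s_at probe sets removed none of those used for the 11 ratios, so the main values were repeated. The mean of all probe sets also repeated them for Sox2 and Cck, which have 1 probe set each. A floor at the 25th percentile could only keep or raise these ratios. The 9 values under 2-fold included Ncam1 in ORS under the common median and hybridisation control scalings. They also held Isl1 in matrix with the mean of all probe sets, and 6 values with a floor at the 75th percentile (465). That floor left 1, 0 and 1 members higher in basal epidermis, matrix and ORS, 0 in all 3, 0 in both basal epidermis and ORS, 1 lower in 2KO matrix than in 2KO ORS and 1 higher in 2KO basal epidermis than in 2KO matrix. Higher members in matrix numbered 5 with a floor at the 25th percentile, 6 with a pseudocount of 16 in place of the floor, and 1 with the mean of all probe sets. Under that mean 1 member was higher in all 3 populations and Ncam1 was not measured. Calls over all genes moved too. Genes higher in basal epidermis, matrix and ORS numbered 760, 1053 and 979 in the main setting. They numbered 1637, 2149 and 1834 with the floor at the 25th percentile and 235, 311 and 337 at the 75th. With the pseudocount there were 1661, 2040 and 1762, and with the mean of all probe sets 564, 721 and 711. No other scaling or probe set choice moved a count of members by over 1.5 times.

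Of the 115 genes of the other 8 lists on the array, 14, 23 and 22 were higher and 3, 1 and 2 lower in basal epidermis, matrix and ORS. The higher counts were 37, 41 and 49 with the floor at the 25th percentile, 6, 6 and 11 at the 75th, and 42, 41 and 42 with the pseudocount, 15 in matrix with hybridisation controls, and 13 in ORS with the mean of probe sets. The lower counts were 7, 4 and 5 at the 25th percentile, 5, 4 and 8 with the pseudocount, 1 in ORS at the 75th percentile, and in matrix 2 with the common median, 5 with hybridisation controls and 0 with quantile and loess normalization. Scaling to a common median moved the median log2 ratio of all measured genes to -0.07, -0.24 and -0.24, and to hybridisation controls to -0.02, -0.64 and -0.18. No paired analysis was possible because each group has 1 array and so no second replicate number, and a fit of genotype with population as a block, which would take the 3 populations as replicates, was not run. Genes below the floor may be present at levels these arrays do not read.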
